A study of Mus musculus with 4 samples.

Results

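The genes described here are 9 components of the tight junction, chosen by symbol from the 24444 genes of a mouse expression table: the claudin genes Cldn1, Cldn3, Cldn4 and Cldn7, Ocln and Marveld2, F11r, Tjp1 and Cgn. All 9 are in the table and all 9 passed the filter on low values. They were measured by poly(A) RNA sequencing of cultured oesophageal cells of the C57BL/6J strain, as the sample labels have it. The design text of the series names a human breast cancer line and another gene instead, and the labels and the mouse gene symbols of the table were followed. The mutant cells (Nrf2-HET, 2 libraries) came from CRISPR/Cas9 microinjection with an Nfe2l2-E79Q cassette, and the wild-type cells (Nrf2-WT, 2 libraries) carry no cassette and had no treatment. Nfe2l2 encodes NRF2, a transcription factor of antioxidant and detoxification genes, and E79Q is described by the series as derived from tumours. Every column name in the table carries the word SV40, for all 4 libraries alike, and the labels do not explain it. The sources used here do not give the promoter or Cre that controls the allele, the number of animals behind a library, or their age and sex. Nothing says that the 2 libraries of a group came from separate cultures or animals, so the p-values measure only the spread between these libraries, which may be technical.

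Tight junctions seal the space between neighbouring epithelial cells. Claudins form the strands that block or pass ions, occludin and tricellulin belong to the MARVEL family of membrane proteins in the same strands, and the immunoglobulin-type protein JAM-A sits beside them. On the inner face, ZO-1 and cingulin tie the strands to actin. In stratified squamous epithelium such as the lining of the oesophagus and the epidermis, the working junctions lie in the upper layers, and claudin-1 is required for the barrier of mouse skin.

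Within the claudins, Cldn1 was higher in Nrf2-HET cells, while Cldn3 and Cldn7 were lower. In the plaque below the membrane Tjp1 was higher and Cgn was lower. Marveld2 was lower too. Cldn4, Ocln and F11r did not pass the test. Thus 2 of 9 genes rose and 4 fell, 66.7% of the 9 in either direction, where 40.4% of the 10857 genes tested were called. By direction the shares were 22.2% of the 9 called higher, beside 21.5% of all genes tested, and 44.4% called lower, beside 18.9%. The median difference of the 9 was -0.14, and over all genes tested it was 0.01. Values are the authors' variance-stabilised log2 values, differences are Nrf2-HET minus Nrf2-WT with the moderated SE over 2 replicate pairs, and a gene was called at a limma adjusted p (Benjamini-Hochberg over all genes tested) under 0.05. The depth was estimated at 13.0 to 15.2 M reads in the Nrf2-HET libraries and 12.6 to 14.2 M in the Nrf2-WT libraries.

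**Figure D1:**
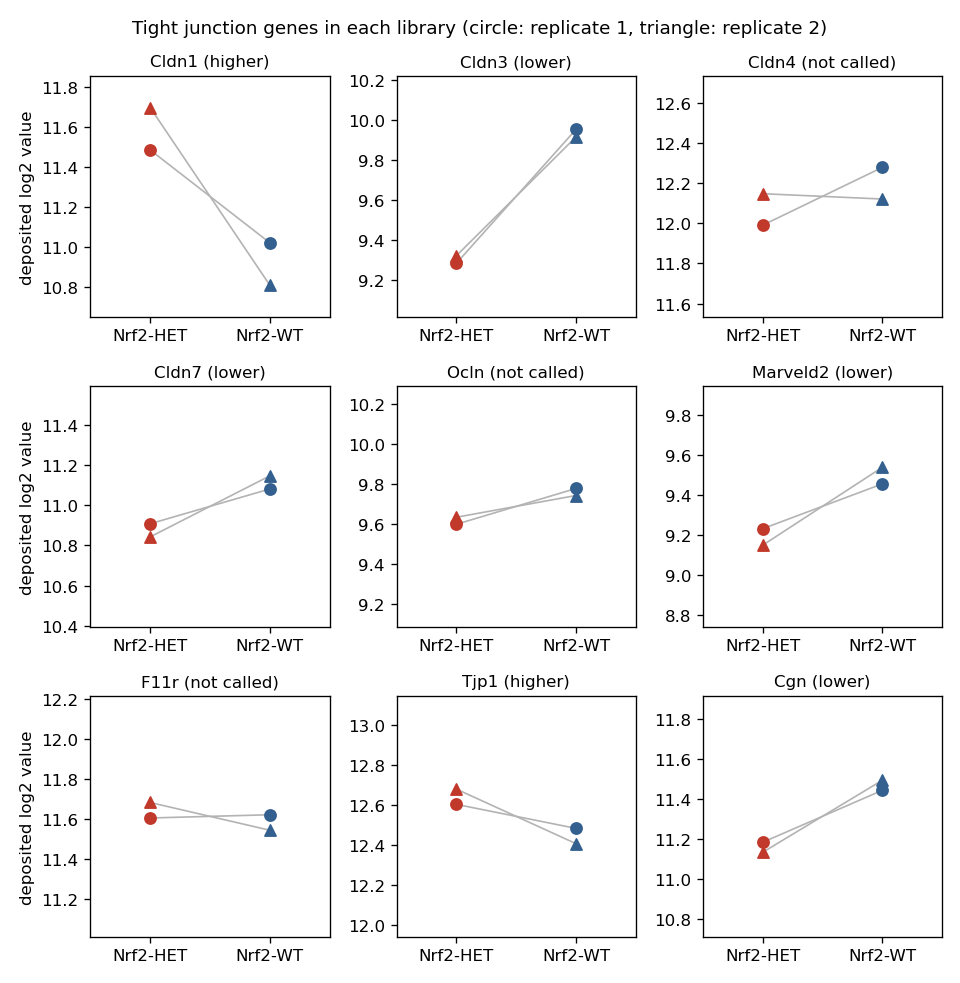
Deposited log2 value (vertical axis, the same span of 1.2 in each panel) of each of the 9 genes in the 2 Nrf2-HET (red) and 2 Nrf2-WT (blue) libraries, with a line joining libraries of the same replicate number. Both Nrf2-HET libraries lie above both Nrf2-WT libraries for Cldn1 and Tjp1, below them for Cldn3, Cldn7, Ocln, Marveld2 and Cgn, and among them for Cldn4 and F11r.

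Cldn1 encodes claudin-1, the main sealing claudin of stratified epithelium. Its value was 11.48 and 11.70 in the Nrf2-HET libraries, against 11.02 and 10.81 in the Nrf2-WT libraries. Both Nrf2-HET libraries lay above both Nrf2-WT libraries, and the gap was wider in the second pair (0.89) than in the first (0.46). The difference was 0.68 ± 0.07 (SE, limma adjusted p = 2.34e-06), larger in size than in 97.8% of all genes tested. This SE draws mostly on the spread pooled over genes, and the 2 pairs of Cldn1 lie further apart than it would show. The limma adjusted p was 0.0103 with a pooling robust to outlying genes (robust empirical Bayes) and 0.0210 without the replicate block. On an approximate scale of normalised counts this was 2830 in Nrf2-HET and 1690 in Nrf2-WT, a ratio of 1.68.

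Cldn3 encodes claudin-3, a sealing claudin found mainly in simple and glandular epithelia. It lay at 9.28 and 9.32 in Nrf2-HET and at 9.95 and 9.91 in Nrf2-WT. The groups did not overlap and the pairs were alike, with -0.67 in the first and -0.59 in the second. Cldn3 fell by 0.63 ± 0.06 (SE, limma adjusted p = 6.31e-07), and the approximate normalised count was 404 in Nrf2-HET and 741 in Nrf2-WT. The fall was larger in size than the differences of 97.3% of the genes tested. An antisense gene, Wbscr25, overlaps exons of Cldn3 in the GENCODE annotation of GRCm38. The sources used here do not say whether the counting used strand, so reads of that gene cannot be told apart from those of Cldn3.

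Cldn4 is the neighbour of Cldn3 in the genome, with 0 protein-coding genes between them in the same annotation, and encodes claudin-4, a claudin of simple epithelia that is also found in the upper layers of stratified ones. Its values were 11.99 and 12.15 in Nrf2-HET and 12.28 and 12.12 in Nrf2-WT. The groups overlapped, because the first pair differed by -0.29 and the second by 0.03. The difference of -0.13 ± 0.06 (SE) did not pass (limma adjusted p = 0.0955). It passed in fits without replicate 2 of either group and after quantile normalization (-0.16, limma adjusted p = 0.0230). Both fits without replicate 2 gave the same -0.21, because the deposited values were centred on the replicate number, and are not independent results. The other 8 alternatives gave no call.

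Cldn7 encodes claudin-7, which lies along the lateral membrane as well as in the junction. It lay at 10.91 and 10.84 in Nrf2-HET, against 11.08 and 11.15 in Nrf2-WT. All Nrf2-HET values were below all Nrf2-WT values. The fall of 0.24 ± 0.05 (SE, limma adjusted p = 0.00180) was smaller than that of Cldn3, with approximate normalised counts of 1640 in Nrf2-HET and 1970 in Nrf2-WT.

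The sequences before the starts of 3 claudin genes are shown because these genes differ most in response: Cldn1, which rose, Cldn3, which fell, and its neighbour Cldn4, which did not pass. Each is the 250 bases before the annotated start, 5′ to 3′ on the strand of the gene, from RefSeq on GRCm38.p6: chr16:26371840-26372089 (minus strand) for Cldn1, chr5:134985964-134986213 (plus strand) for Cldn3 and chr5:134946935-134947184 (minus strand) for Cldn4. Capitals mark matches to any of the 4 motifs described after the sequences.
Cldn1: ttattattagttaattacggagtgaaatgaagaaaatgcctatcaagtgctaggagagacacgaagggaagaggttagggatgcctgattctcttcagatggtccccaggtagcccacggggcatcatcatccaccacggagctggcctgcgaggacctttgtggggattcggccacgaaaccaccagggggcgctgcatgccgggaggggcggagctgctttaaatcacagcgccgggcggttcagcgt
Cldn3: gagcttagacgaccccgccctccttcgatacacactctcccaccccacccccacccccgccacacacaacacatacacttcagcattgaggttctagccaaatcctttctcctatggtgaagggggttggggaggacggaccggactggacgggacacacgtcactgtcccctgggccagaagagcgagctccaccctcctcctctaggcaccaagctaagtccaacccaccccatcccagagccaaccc
Cldn4: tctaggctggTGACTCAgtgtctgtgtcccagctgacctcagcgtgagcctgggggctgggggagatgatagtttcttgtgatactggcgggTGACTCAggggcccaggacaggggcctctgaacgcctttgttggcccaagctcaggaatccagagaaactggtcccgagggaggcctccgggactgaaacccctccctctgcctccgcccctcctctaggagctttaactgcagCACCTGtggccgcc

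On both strands, 4 motifs were searched in these windows and in those of the other members, of which all 9 were matched by symbol with 12 annotated starts. They were TGACNNNGC, the core of the antioxidant response element bound by NRF2 with small MAF proteins, TGANTCA, bound by AP-1, CACCTG, an E-box bound by the Snail and ZEB repressors, and AACNNGTT, bound by grainyhead-like factors. The first of these can overlap the AP-1 motif, as in an element that starts TGAC and goes on TCAGC. TGACNNNGC was in 0 of the 12 windows of the members and in 10.2% of the 32851 windows of all genes. TGANTCA was found in the windows of 2 of the 9 genes, at 240 and 158 bases before the start of Cldn4 and at 109 bases before that of F11r, and in 6.75% of all windows. CACCTG was in the windows of Cldn4, Cldn7, Ocln and F11r and in 17.2% of all windows, and AACNNGTT was in that of Cgn and in 3.64% of all. The windows of Cldn1, Cldn3, Tjp1 and Marveld2 held none of the 4. These matches describe letters in a short window, and 9 genes are too few to set their shares against those of all windows.

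The MARVEL genes were lower or not called. Marveld2 encodes tricellulin, which seals the points where 3 cells meet. It lay at 9.23 and 9.15 in Nrf2-HET and at 9.45 and 9.54 in Nrf2-WT, with no overlap, and fell by 0.31 ± 0.06 (SE, limma adjusted p = 0.00146). The approximate normalised count was 359 in Nrf2-HET and 492 in Nrf2-WT.

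Ocln, its neighbour with 0 protein-coding genes between them, encodes occludin. Its values were 9.60 and 9.63 in Nrf2-HET and 9.78 and 9.74 in Nrf2-WT, which do not overlap. The difference of -0.14 ± 0.06 (SE) did not pass (limma adjusted p = 0.0629), although 6 of 11 alternatives called it lower, with adjusted p-values between 0.0166 and 0.0969 over all 11. Among these is the fit without the replicate block (limma adjusted p = 0.0172), which called 7 of the 9 genes and 55.3% of all genes tested. The fits without Nrf2-HET replicate 1 (-0.13) and without replicate 2 of either group are also among them. Centring gives both fits without replicate 2 the same estimate (-0.16), so they are not independent results. Groups without overlap were the rule in this table, in 7 of the 9 genes and in 79.2% of all genes tested.

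F11r encodes JAM-A, an adhesion molecule that recruits polarity proteins to the young junction. It lay at 11.61 and 11.68 in Nrf2-HET, against 11.62 and 11.54 in Nrf2-WT. The groups overlapped and the pairs differed in sign, with -0.02 in the first and 0.14 in the second. The difference of 0.06 ± 0.05 (SE) did not pass in any setting tried (limma adjusted p = 0.359, and 0.0688 to 0.707 over the 11 alternatives).

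The plaque genes moved in opposite directions. Tjp1 encodes ZO-1, the scaffold that binds claudin tails and actin. It was at 12.60 and 12.68 in Nrf2-HET and at 12.48 and 12.41 in Nrf2-WT, and it rose by 0.20 ± 0.05 (SE, limma adjusted p = 0.00432). Its groups did not overlap, and the approximate normalised counts were 6140 in Nrf2-HET and 5330 in Nrf2-WT.

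Cgn encodes cingulin, which binds ZO-1 and actomyosin. It was at 11.18 and 11.13 in Nrf2-HET and at 11.44 and 11.49 in Nrf2-WT. It fell by 0.31 ± 0.05 (SE, limma adjusted p = 0.000132), with no overlap and approximate normalised counts of 2040 in Nrf2-HET and 2580 in Nrf2-WT.

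**Figure D2:**
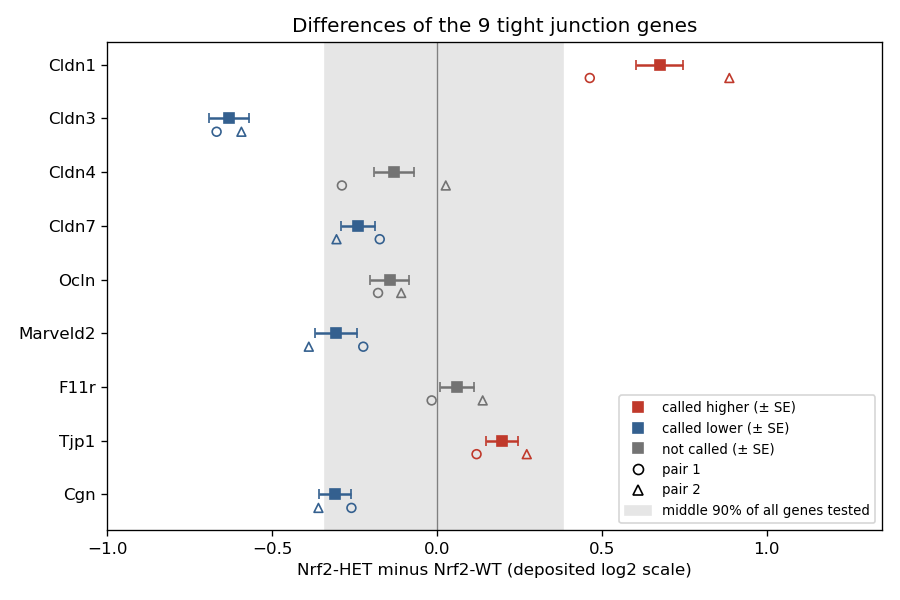
Difference (squares, ± moderated SE) of each of the 9 genes on the deposited log2 scale, with the 2 replicate pairs as open circles and triangles and the range of the middle 90% of all genes tested (-0.34 to 0.38) as a grey band. Cldn1 at 0.68 and Cldn3 at -0.63 lie outside the band, and the other 7 genes lie inside it.

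Only Cldn1 and Cldn3 differed by more than 0.5, a size reached and called in 4.87% of all genes tested. The other 7 lay between -0.31 and 0.20, within the range of -0.34 to 0.38 that held the middle 90% of genes. The tests of Cldn1 and Cldn3 and those of the other 7 alike rest on the spread pooled over all genes. For any gene, 2 pairs alone cannot give a two-sided exact p below 0.5.

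Of the other claudins, 20 of 22 listed genes were in the table and 3 passed the filter, which asked for a value of at least 7.90 in 2 libraries. Cldn6 and Cldn23 passed it through the Nrf2-WT libraries alone, so the filter itself chose them for a higher value there. Cldn6, a claudin of early and simple epithelia, lay at 7.69 and 7.68 in Nrf2-HET and at 8.53 and 8.54 in Nrf2-WT, a fall of 0.85 ± 0.07 (SE, limma adjusted p = 1.90e-07). It is a low gene, with approximate normalised counts of 31.2 in Nrf2-HET and 162 in Nrf2-WT, and the scale compresses such changes. Cldn23 fell by 0.22 ± 0.07 (SE, limma adjusted p = 0.0254) but was not called after quantile normalization (-0.18, limma adjusted p = 0.0623). Cldn12 did not pass (-0.05 ± 0.06, SE). The claudin-domain gene Cldnd1, listed with them, did not pass either (0.10 ± 0.05, SE). In 10 claudins every library was at the floor of the table, among them Cldn5 of endothelium and Cldn18 of stomach and lung.

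Relatives of the other members are given beside them, chosen after their values were seen. Tjp3, which encodes ZO-3, was at 9.87 and 9.84 in Nrf2-HET and at 10.16 and 10.19 in Nrf2-WT and fell by 0.32 ± 0.06 (SE, limma adjusted p = 0.000298), opposite to Tjp1. Cgnl1, the paracingulin gene, was at 10.71 and 10.64 in Nrf2-HET and at 10.34 and 10.41 in Nrf2-WT and rose by 0.30 ± 0.05 (SE, limma adjusted p = 0.000460), opposite to Cgn. The approximate normalised counts were 692 in Nrf2-HET and 919 in Nrf2-WT for Tjp3. For Cgnl1 they were 1390 in Nrf2-HET and 1090 in Nrf2-WT. Of the remaining MARVEL genes Marveld3 did not pass (-0.04 ± 0.06, SE). Marveld1 fell by 0.17 ± 0.06 (SE, limma adjusted p = 0.0468), a call lost in 7 of 11 alternatives, among them the fits without Nrf2-HET replicate 1 (-0.12, limma adjusted p = 0.0897) and without Nrf2-WT replicate 1 (-0.12, limma adjusted p = 0.0945).

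**Figure D3:**
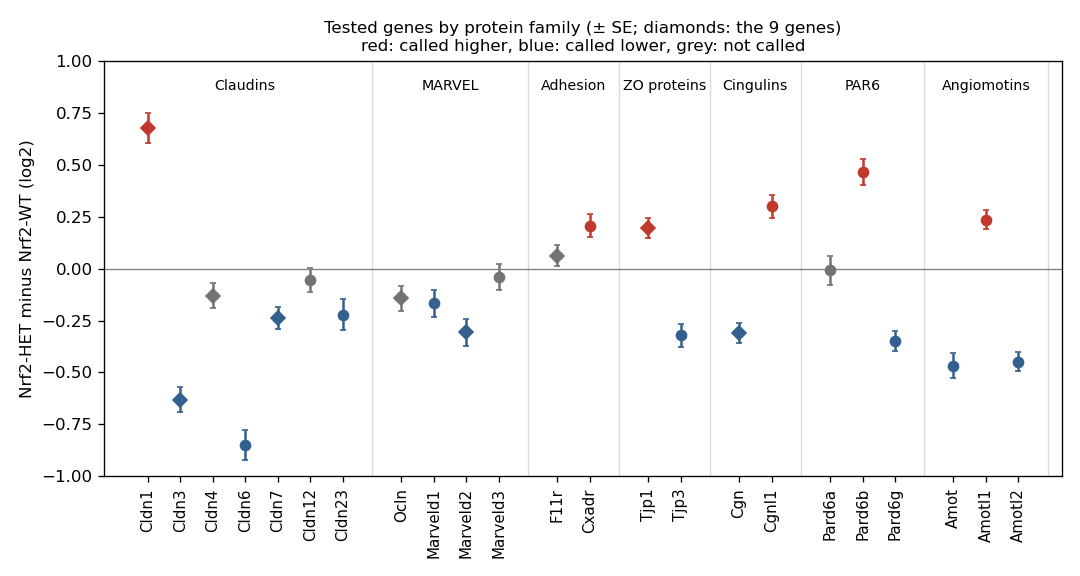
Difference (± moderated SE) on the deposited log2 scale of tested genes by protein family, with the 9 genes as diamonds and other family members as circles. Red genes were called higher, blue lower and grey neither: the claudin, ZO, cingulin, PAR6 and angiomotin families each hold a gene called higher and a gene called lower in Nrf2-HET.

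Other membrane proteins of the junction had 3 higher and 2 lower of 8 tested, with a median of -0.01. Over all genes tested 21.5% were higher and 18.9% lower. Epcam, which encodes an adhesion protein known as a partner of claudin-7, fell by 0.22 ± 0.04 (SE, limma adjusted p = 0.000833). Crb3, the apical polarity protein Crumbs3, rose by 0.22 ± 0.06 (SE, limma adjusted p = 0.0105).

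The other plaque and polarity genes had 8 higher and 7 lower of 26 tested, with a median of 0.00. This stands beside 21.5% higher and 18.9% lower of all genes tested. Pard6b rose by 0.46 ± 0.06 (SE, limma adjusted p = 2.16e-05) and Pard3 by 0.31 ± 0.05 (SE, limma adjusted p = 9.00e-05). Both encode parts of the PAR polarity complex that acts at the forming junction. Pard6g, a close relative of Pard6b named after its values were seen, fell by 0.35 ± 0.05 (SE, limma adjusted p = 3.54e-05). Heg1 fell by 0.57 ± 0.07 (SE, limma adjusted p = 1.71e-05), with low approximate normalised counts of 34.0 in Nrf2-HET and 111 in Nrf2-WT, and it passed the filter through Nrf2-WT alone. Amot, which encodes angiomotin, a junctional scaffold that binds YAP, fell by 0.47 ± 0.06 (SE, limma adjusted p = 1.96e-05). Of its relatives, likewise named after their values were seen, Amotl2 fell by 0.45 ± 0.05 (SE, limma adjusted p = 1.76e-06) and Amotl1 rose by 0.24 ± 0.05 (SE, limma adjusted p = 0.000839).

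The adherens junction, which lies just below the tight junction, had 0 higher and 5 lower of 9 tested genes, with a median of -0.13, beside 21.5% higher and 18.9% lower of all genes tested. Nectin4, a nectin of epithelia, lay at 9.77 and 9.70 in Nrf2-HET and at 10.19 and 10.25 in Nrf2-WT and fell by 0.48 ± 0.06 (SE, limma adjusted p = 8.10e-06). Ctnnb1, beta-catenin, fell by 0.20 ± 0.04 (SE, limma adjusted p = 0.00210). Cdh1, E-cadherin, did not pass (-0.08 ± 0.04, SE).

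In the list of regulators 5 were higher and 5 lower of 18 tested, with a median of -0.01, beside 21.5% higher and 18.9% lower of all genes tested. This list also holds the membrane proteases Prss8 and St14 and the protease inhibitors Spint1 and Spint2, which are not regulators of gene expression. Prss8, St14 and Spint1 were among the 5 lower. Klf4 and Klf5, epithelial Krüppel-like factors, rose by 0.48 ± 0.06 (SE, limma adjusted p = 5.23e-06) and 0.44 ± 0.05 (SE, limma adjusted p = 5.76e-06). Elf3, an ETS factor of epithelial differentiation, fell by 0.40 ± 0.05 (SE, limma adjusted p = 2.84e-05). Zeb2, a repressor of epithelial genes, fell by 0.45 ± 0.08 (SE, limma adjusted p = 0.000244), with approximate normalised counts of only 17.8 in Nrf2-HET and 60.9 in Nrf2-WT, and it passed the filter through Nrf2-WT alone. Snai2, another repressor of epithelial genes, named after its values were seen, went the other way. It lay at 9.92 and 9.98 in Nrf2-HET and at 9.71 and 9.65 in Nrf2-WT and rose by 0.27 ± 0.06 (SE, limma adjusted p = 0.00190). Over all 5 related lists 37 of 65 tested genes were called (56.9%), 16 higher and 21 lower, beside the 40.4% of all genes tested. Of the 21, 4 (Cldn6, Cldn23, Heg1 and Zeb2) had passed the filter through Nrf2-WT alone.

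**Figure D4:**
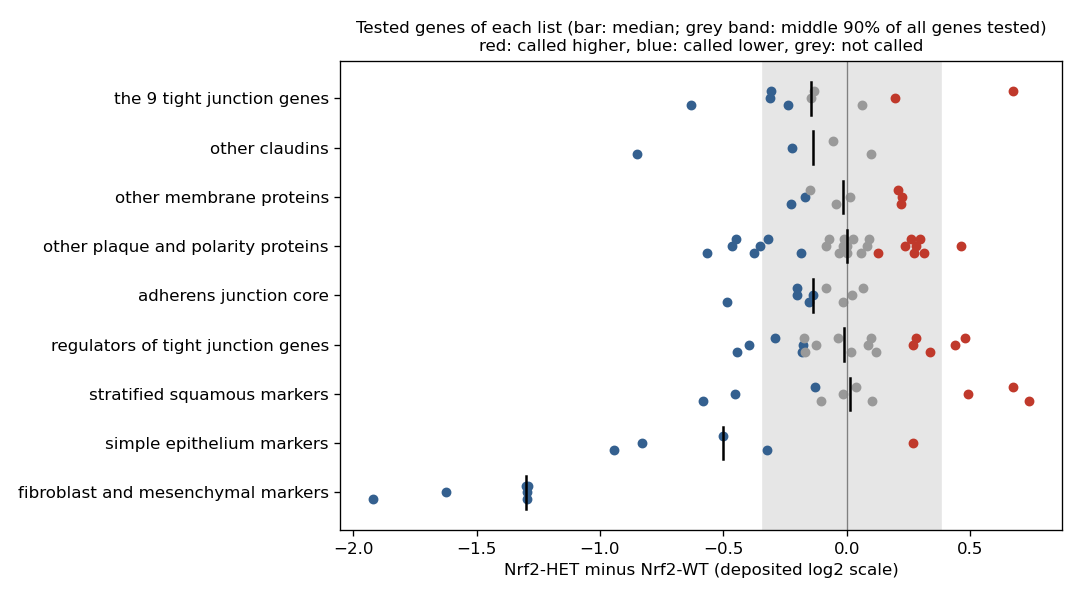
Difference on the deposited log2 scale of every tested gene in the 9 tight junction genes, the related lists and the marker lists, with the median as a bar and the middle 90% of all genes tested as a grey band. The junction lists have values on both sides of 0, though the adherens junction had 0 called higher and 5 lower of 9. The other claudins had 0 higher and 2 lower of 4. The simple epithelium list has a median of -0.50 and the mesenchymal list one of -1.30.

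Several marker genes of other cell states differed between the groups as well. Over all genes tested 21.5% were called higher and 18.9% lower, the shares to set beside each marker list. Of the simple epithelium markers 4 of 5 tested were lower in Nrf2-HET and 1, Krt20, was higher. Their summed approximate normalised counts were 17700 to 17900 in Nrf2-HET and 30000 to 30100 in Nrf2-WT. Of 12 mesenchymal markers 6 were tested and were lower, 2 of them (Col1a1 and Col5a1) having passed the filter through Nrf2-WT alone. The sums over all 12 were 7960 to 8460 in Nrf2-HET and 21500 to 22700 in Nrf2-WT. Most of each sum was Fn1 alone, with 7460 in Nrf2-HET and 18700 in Nrf2-WT. Among the untested markers Dcn lay at 7.40 in both Nrf2-HET libraries and at 6.98 in both Nrf2-WT libraries, and Lum was at the floor in every library. Stratified markers had 3 higher (Krt6a, Krt13 and Dsg3) and 3 lower (Krt14, Krt15 and Sox2) of 10. The largest rise was that of Dsg3 (0.74 ± 0.05, SE) and the largest fall that of Krt15 (-0.58 ± 0.07, SE). The basal keratin gene Krt5 was at 15.79 and 15.84 in Nrf2-HET and at 15.85 and 15.80 in Nrf2-WT. Krt4, a keratin of the upper oesophageal layers, was at 8.52 and 8.56 in Nrf2-HET and at 8.67 and 8.62 in Nrf2-WT. Neither Krt5 nor Krt4 was called. The endothelial list had 0 of 7 genes tested and the immune list 1 of 6, Cd68, which was higher, while Ptprc was at the floor. In bulk samples fewer cells of a type and less RNA per cell cannot be told apart, and the part of these markers in the claudin differences was not tested.

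The libraries differed in sex-linked genes too. Xist lay at 7.30 and 7.12 in Nrf2-HET and at 11.99 and 12.17 in Nrf2-WT, and passed the filter through Nrf2-WT alone. Ddx3y, a gene of the Y chromosome, lay at 10.05 and 10.19 in Nrf2-HET and at 9.65 and 9.51 in Nrf2-WT. All 4 listed Y-linked genes passed the filter. Ddx3y (0.54 ± 0.07, SE) and Uty (0.31 ± 0.07, SE) were called higher in Nrf2-HET. Kdm5d (0.13 ± 0.06, SE) and Eif2s3y (0.06 ± 0.06, SE) were not called. The Nrf2-WT libraries thus held both kinds of transcript. Any difference in the sex of the donors and the genotype cannot be told apart here.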

How the data were processed

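The deposited table holds log2-like values from a variance-stabilising transformation by the authors, 1 per gene and library. The notes of the submitters on processing list DESeq2 and DESeq 1.22.2, Salmon 0.11.3 and STAR 2.5.2b, with build mm9, and no role for any. In every gene the 2 libraries of replicate 1 sum to the same value as those of replicate 2 (to within 1.31e-13), so the deposited values were centred on the replicate number, which pairs the libraries. The sources used here do not say what a number stands for.

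Genes with a value at least 1 above the lowest (6.90) in at least 2 libraries were tested with limma 3.58.1 in R 4.3.3 (genotype with a replicate block, 1 residual degree of freedom, mean-variance trend, two-sided, Benjamini-Hochberg). Its spread is pooled over genes (14.6 prior degrees of freedom). The steps were tested on simulated data. Approximate normalised counts invert the transformation from the floor of 6.978 at each group's mean. Depth comes from genes read in 1 library alone, whose values are whole multiples of 1 read. Both are approximate, because centring moved each library's level. Levels were not compared between genes, as no length scaling was made.

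The members and lists were chosen with earlier results of these data known. The text names all members and, in each related list, the 2 largest called rises and falls, apart from 1 gene that is not reported here. Of 93 related genes listed, 90 are in the table. The promoter windows are RefSeq sequences of another build (GRCm38.p6), matched by symbol.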

Additional observations from a re-analysis of the deposited data

How the results depend on the processing

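The 6 calls among the 9 tight junction genes held in direction and in call under all 11 alternatives tried. Of 99 values (9 genes, 11 alternatives) 0 changed sign, 90 kept their side of the threshold and 9 gained a call, 3 for Cldn4 and 6 for Ocln. The number of members called was 6 to 8, with 2 higher throughout. Without the replicate block 7 of the 9 and 6004 of all genes (55.3%) were called, against 6 and 4388 with it; the block changed the member call of Ocln alone. Leaving out 1 library gave 5008 to 5463 genes and 6 to 8 members called, in a fit of genotype alone where the lone library of a group is assumed to vary like the others, and where centring makes the remaining spread too small. Over all 11 alternatives Cldn1 differed by 0.57 to 0.78 and Cldn3 by -0.65 to -0.61. The estimate is the same by construction without the block, with no or a stricter filter, with robust empirical Bayes and with no mean-variance trend. Its sign could not change there. Leaving out either library of a replicate number gives the same estimate too, because the values were centred, so these fits are not independent. Of the lists, the other claudins had 0 calls with a filter of 2 above the lowest value, which leaves out Cldn6 and Cldn23, and 1 after quantile normalization, against 2. Other membrane proteins had 3 calls without the block and 5 with it, and the adherens junction had 3 with no mean-variance trend and 5 with it; the cause was not tested. Low counts limit Cldn6, Cldn23, Heg1 and Zeb2, which passed the filter through Nrf2-WT alone, and kept 25 related genes in the table from being tested.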

Other observations

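Of the related genes in the table, 25 lay too low to be tested, 10 of them at the floor of 6.978 in every library. In the other 15 the Nrf2-HET libraries lay below the Nrf2-WT libraries without overlap in 9, above them in 1 and overlapped with them in 5. Groups without overlap in either direction made up 79.2% of all genes tested, which had passed the filter that these 15 did not. The examples given here were chosen after their values were seen. Zeb1, a repressor of epithelial genes, was at 7.20 and 7.19 in Nrf2-HET and at 7.79 and 7.81 in Nrf2-WT. Of the relatives of F11r, Jam3 was at 7.24 and 7.26 in Nrf2-HET and at 7.67 and 7.65 in Nrf2-WT. For Jam2 the groups overlapped, and Esam, the 1 gene that lay above, was at 7.48 and 7.58 in Nrf2-HET and at 7.37 and 7.26 in Nrf2-WT.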
